A study of Mus musculus with 12 samples.

Results

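The cytosolic ribosome is built from a large (60S) and a small (40S) subunit, and its proteins are named Rpl for the large and Rps for the small subunit. Their mRNAs are short, abundant and mostly made in step with one another, and many begin with a run of pyrimidines that couples their translation to mTOR signalling. Each ribosomal protein gene also has processed pseudogenes in the mouse genome, so reads from its mRNA can match several loci.

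The genes described here are the protein-coding genes whose symbol begins with Rpl or Rps and a digit, or is Rpsa, Rplp0, Rplp1 or Rplp2, without names in -ps and without the Rps6k kinases, and with at least 1 CPM (read count scaled to library size) in at least 3 libraries. By this rule 87 of the 27179 genes in the count table were members, of 89 that matched by name. The gene nearest outside the expression limit was Rpl3l, with 1 library at or above 1 CPM and a highest value of 3.00 CPM, and Rpl10l reached 0.082 CPM at most. The member nearest inside was Rpl39l. Of the 87, 77 are canonical ribosomal proteins, 46 of the large and 31 of the small subunit. The other 10 are the paralogs Rpl22l1, Rpl36al, Rpl39l, Rpl7l1 and Rps27l, the further copies Rpl32l, Rpl37rt, Rps27rt and Rps23rg1, and Rps19bp1, which by its name binds Rps19 and is not a ribosomal protein. All 87 passed the filter on low counts that preceded the tests, which kept 13415 genes.

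The 12 RNA-seq libraries came from conventional dendritic cells of the spleen, type 1 (cDC1, which take up dead cells and cross-present their antigens) and type 2 (cDC2), of female C57/BL6 mice. For each subset, 3 libraries were from wild-type (WT) and 3 from zfp366-/- mice (KO), named throughout as their labels have it. DC-SCRIPT, the product of Zfp366, is a nuclear zinc finger regulator. Each library was made from a pool of mice, and each of the 6 pools gave 1 cDC1 and 1 cDC2 library. The labels give no age and do not say which part of Zfp366 was removed. Zfp366 was counted at 152, 89.2 and 67.5 CPM in WT cDC1 and at 48.8, 48.4 and 45.4 CPM in the libraries labelled KO (log2 fold change -1.12, SE 0.27, adjusted p = 0.0326, edgeR quasi-likelihood test; the call was lost in 7 of 25 alternatives). In cDC2 it was not lower, at 66.9 ± 12.9 CPM in KO and 57.4 ± 4.91 CPM in WT (SD, n = 3 each), so the gene's count does not check the KO label there. Total counts ran from 11330503 to 36761685 per library. The cDC1 markers summed to between 4175 and 6122 CPM in cDC1 and to at most 263 CPM in cDC2, whereas the cDC2 markers reached 7425 CPM in cDC2, 114 CPM at most in WT cDC1, and 663 to 692 CPM in KO cDC1. Markers of erythroid cells and platelets summed to between 13.4 and 237 CPM. Monocyte markers summed to between 530.5 and 673.4 CPM in KO cDC1, 93.7 and 176.3 CPM in WT cDC1, 275.8 and 317.9 CPM in WT cDC2, and 194.0 and 438.3 CPM in KO cDC2. Plasma cell markers were also above the other groups in KO cDC1 (247.3 to 306.1 CPM, and at most 219.4 CPM elsewhere), while red pulp macrophage markers were higher in WT cDC2 (285.8 to 584.5 CPM) than in WT cDC1 (137.1 to 283.3 CPM). The part of these other cells in the results below was not tested.

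Rps27, a zinc-binding small subunit protein, and its copy Rps27rt show how close some members are in sequence. Their annotated coding sequences (GENCODE vM21, GRCm38) had the same 255 bases with 0 differences, while the paralog Rps27l differed from Rps27 at 61 bases (76.1% identity). The sequence of Rps27, which is also that of Rps27rt, and that of Rps27l are given with the bases that differ from Rps27 in capitals.
Rps27: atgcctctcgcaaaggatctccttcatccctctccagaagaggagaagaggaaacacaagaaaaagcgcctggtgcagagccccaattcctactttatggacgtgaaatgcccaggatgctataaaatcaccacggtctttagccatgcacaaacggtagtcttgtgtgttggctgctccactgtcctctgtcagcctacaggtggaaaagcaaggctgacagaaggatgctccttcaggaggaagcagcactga
Rps27l: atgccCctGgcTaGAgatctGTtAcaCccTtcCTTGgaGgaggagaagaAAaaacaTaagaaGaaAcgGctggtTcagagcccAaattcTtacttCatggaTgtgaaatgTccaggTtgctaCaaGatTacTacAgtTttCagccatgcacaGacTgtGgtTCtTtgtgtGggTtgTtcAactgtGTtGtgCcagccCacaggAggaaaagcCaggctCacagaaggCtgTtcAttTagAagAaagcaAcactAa

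The start sites of members that the results turn on are shown as 30 bases of RefSeq sequence (GRCm38.p6), 10 before the annotated start and 20 from it, in transcript direction. Capitals mark the run of pyrimidines that begins with a C at the start.
Rplp2 (chr7:141447641-141447670, plus strand): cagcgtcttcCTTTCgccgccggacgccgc
Rps27 (chr3:90213629-90213658, minus strand): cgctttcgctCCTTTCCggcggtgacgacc
Rps27rt (chr9:114982720-114982749, minus strand): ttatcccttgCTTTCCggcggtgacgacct
Rpl28 (chr7:4792955-4792984, plus strand): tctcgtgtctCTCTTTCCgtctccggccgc
Rps19 (chr7:24884582-24884611, plus strand): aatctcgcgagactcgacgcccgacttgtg
Rpl4 (chr9:64173377-64173406, plus strand): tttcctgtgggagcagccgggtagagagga
The motif searched was a C at the annotated start followed by 4 letters that were each C or T, on the gene's own strand only. It stood at the start of 15 of the 67 members with a RefSeq entry (22.4%) and of 3.0% of the 27025 genes in the table. Between 5 bases before and 10 after the start it was found in 47.8% of these members and 21.2% of all genes. A gene was counted when any of its annotated starts matched. Rps19 has 3 annotated starts, of which the first by coordinate is shown. Rps19 and Rpl4 had no match at any annotated start, which says only that the letters are not at those positions. The 15 members with the motif at the start had a median log2 fold change of -0.80 between WT cDC1 and WT cDC2, and the 52 without it -0.62, as a description of these libraries.

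Levels per gene length (RPKM, CPM divided by the deposited gene length in kilobases) spanned 74.3-fold over the canonical members. The deposited length can differ from the GENCODE transcript used below. It was 5136 against 640 bases for Rps15a (206.7 RPKM) and 2040 against 474 for Rpl22 (451.5 RPKM), and for Rps20 502 against 3706. The order of genes by RPKM depends on this length, and its part in the levels was not tested. Rplp1, an acidic protein of the ribosomal stalk, was highest, with a mean of 7630 RPKM over the 4 groups. Rps14 (4986 RPKM), Rps27rt (4375 RPKM) and Rps15 (4320 RPKM), named for the small subunit, were also among the 5 highest. The lowest 5 were Rpl39l (4.14 RPKM), Rps19bp1 (16.2 RPKM), Rpl7l1 (50.8 RPKM), Rpl28 (102.7 RPKM) and Rpl39 (103.8 RPKM). Only Rpl28 and Rpl39 among these are canonical large subunit proteins.

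These levels went with how much of each gene can be told from its copies. A coding window of 50 bases was called unique when no transcript of another GENCODE gene holds it. The 28 canonical members without any unique coding window had a median of 400.0 RPKM, and the 10 with at least 50% unique windows had a median of 3057 RPKM. The 39 between had 779.6 RPKM. Across the 77 canonical genes, Spearman's rho of level with the share of unique windows was 0.59, and with gene length -0.06; these genes share the same libraries and are not replicates. Rpl28 had no unique coding window, and 4 pseudogenes share windows with it; Rplp1 had 39.2% unique windows. Rps27 and Rps27rt have no unique coding window either, yet were counted at 241 and 4375 RPKM, so the split of reads between them is uncertain. How reads that match several loci were treated is not given in the sources used here, and its part in these levels was not tested.

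**Figure D1:**
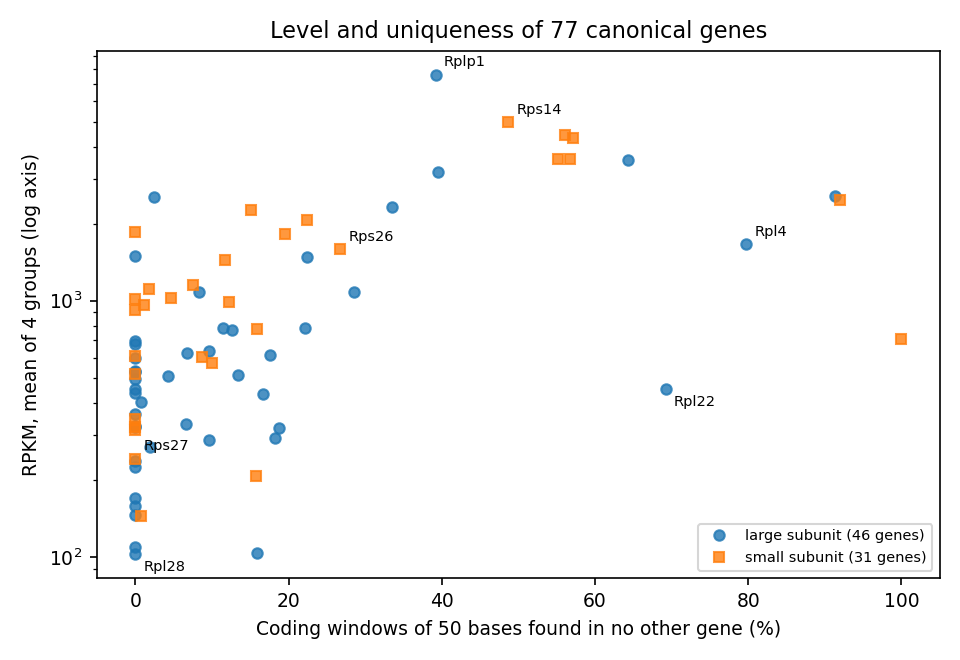
Mean RPKM over the 4 groups (log axis) against the percent of coding windows of 50 bases that occur in no other gene, 1 point for each of the 77 canonical genes. The column of points at 0% holds 28 genes with a median of 400.0 RPKM, and the 10 genes at 50% and above have a median of 3057 RPKM.

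The share of all reads that fell on the 87 members differed more between libraries of a group than between the means of some groups. In WT cDC1 it was 3.12%, 7.02% and 7.98% in replicates 1, 2 and 3, and in KO cDC1 4.85%, 4.50% and 5.12%. In WT cDC2 it was 9.35%, 8.46% and 10.2%, and in KO cDC2 4.66%, 11.8% and 10.4%. The means were 6.04% ± 2.57 in WT cDC1, 4.82% ± 0.315 in KO cDC1, 9.33% ± 0.857 in WT cDC2 and 8.96% ± 3.78 in KO cDC2 (SD, n = 3 each). The 3 WT cDC2 libraries thus lay above all 6 cDC1 libraries, while replicate 1 lay far below its 2 partners in WT cDC1 and in KO cDC2. In bulk samples a lower level per cell and fewer cells of a kind cannot be told apart.

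The same 5 libraries with the lowest shares (3.12% to 5.12%) were those in which longer genes had more reads than in the average library. Spearman's rho of a gene's deviation from its own mean with the deposited length, over all genes tested, was 0.21 to 0.45 in these 5 libraries. It was -0.34 to -0.09 in the other 7, whose shares were 7.02% to 11.8%. The members are short, with a median length of 684 bases against 2644 for all genes tested, and 86 of 87 are shorter than that median. For this reason 2657 tested genes of like length (448.6 to 1502 bases, the 10th to 90th percentile of the members) are set beside them below as the length class. The part of gene length was tested only in the fits that remove its trend, given with the comparisons.

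**Figure D2:**
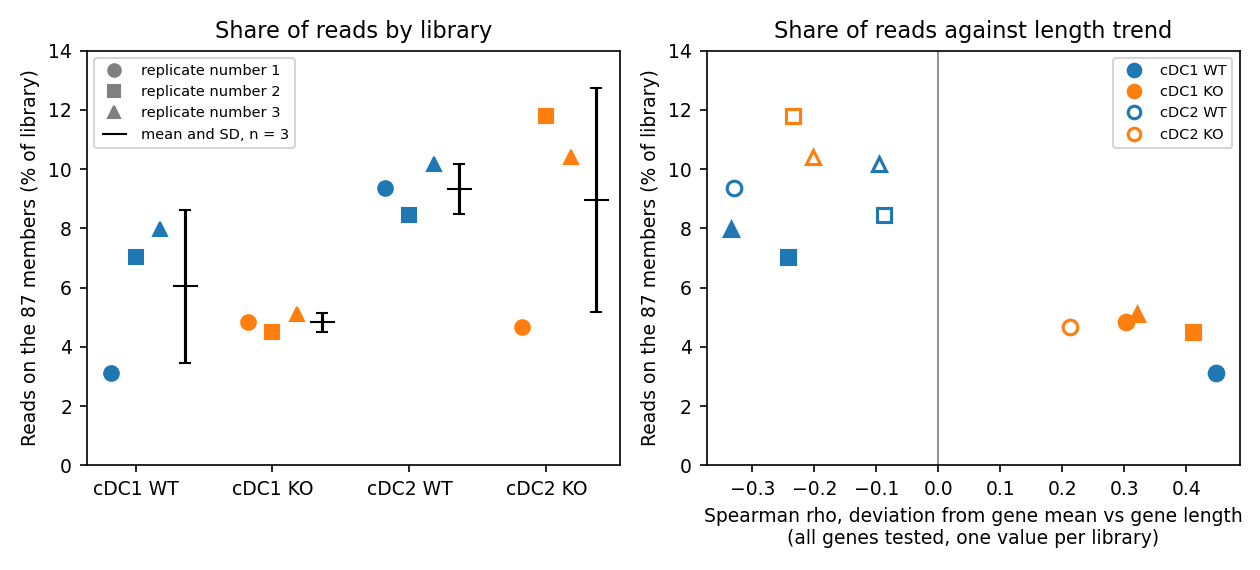
Left, percent of each library's reads on the 87 members by group, with the replicate number as the symbol and the mean and SD of 3 libraries in black. Right, the same percent against the correlation of gene deviations with gene length in that library; the 5 libraries right of 0 lie between 3.12% and 5.12%, the 7 left of 0 between 7.02% and 11.8%.

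The members moved almost as one across the 12 libraries. The median Pearson correlation between 2 members was 0.95 over 3741 pairs, against 0.22 in the length class, and 74 members had a correlation above 0.9 with the median of the others. These correlations are over 12 libraries that share depth and the length trend. In 82 of 87 members the lowest library was WT cDC1 replicate 1, and in 59 the highest was KO cDC2 replicate 2. The 5 exceptions at the low end were Rpl28, Rpl36al, Rpl39l, Rps19bp1 and Rps27l. Rpl28, with a correlation of 0.13, ran from 37.3 CPM in WT cDC2 replicate 3 to 72.2 CPM in WT cDC1 replicate 3. Rps2, a small subunit protein near the mRNA channel that is named here after its values were seen, had a correlation of 0.46.

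Members of both subunits differed in their spread over the libraries. Rpl4, a large subunit protein that lines the exit tunnel, had the smallest SD of log2 CPM over the 12 libraries (0.23), from 1651 CPM to 2883 CPM. Rps19bp1 (0.28), Rps4x (0.28) and Rps26 (0.29) came next. The largest SDs were those of Rpl39l (2.20), Rps27rt (1.00), Rps12 (0.98) and Rps24 (0.98). Rps24, a small subunit protein with a role in pre-rRNA processing, ran from 443 CPM in WT cDC1 replicate 1 to 3759 CPM in KO cDC2 replicate 2, an 8.49-fold range. The large subunit had 1.15 reads per small subunit read in WT cDC1 replicate 1 and 0.891 in KO cDC2 replicate 2, and each of the 5 libraries with low shares had a ratio above that of each of the other 7.

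**Figure D3:**
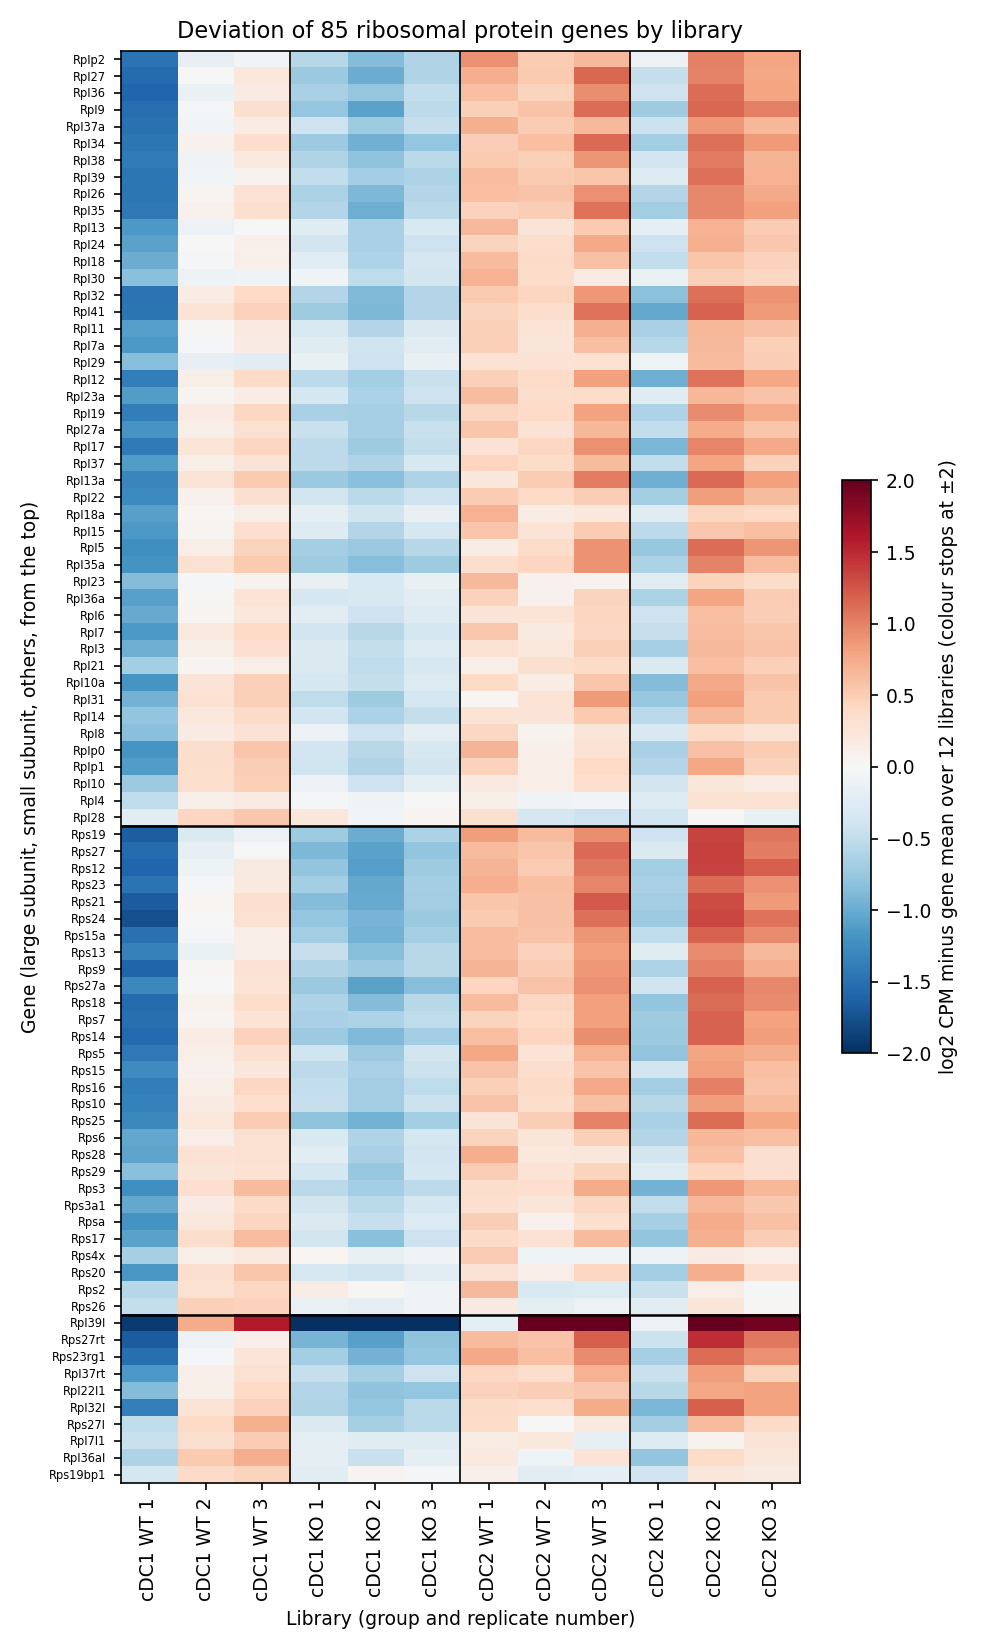
Colour shows log2 CPM of 85 of the 87 genes minus its mean over the 12 libraries, with large subunit, small subunit and other genes in blocks, ordered within a block by the difference between WT cDC1 and WT cDC2. The column of WT cDC1 replicate 1 is the lowest and that of KO cDC2 replicate 2 the highest for most genes, while Rpl4 and Rps26 stay near 0.

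The comparison of KO with WT in cDC1 called none of the 87 members, at a Benjamini-Hochberg adjusted p below 0.05 over all genes tested in edgeR's quasi-likelihood test. Of all genes 3.6% were called higher and 1.72% lower. Although 84 of 87 members were on the lower side, with a median log2 fold change of -0.39, the length class had a median of -0.32 and all genes of -0.00, and the members' median SE was 0.40. At an unadjusted p below 0.05 there were 2 members, Rpl39l and Rps27l. DESeq2 called 1, Rpl39l, where 9.82% of all genes were called, and limma-voom 0, where 5.4% were. KO cDC1 had the lowest group mean of the 4 groups for 81 members, yet only 1 member had all 3 KO libraries below all 3 WT libraries, against 11.4% of all genes.

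That member was Rpl39l, a paralog of the large subunit protein Rpl39 that is best known from testis. It had 6, 2 and 2 reads in the 3 KO cDC1 libraries (0.239, 0.0789 and 0.0819 CPM) and 6, 41 and 65 reads in WT cDC1 (0.33, 2.09 and 3.76 CPM). Its log2 fold change was -3.89 (SE 1.11, adjusted p = 0.0656), and it rests on 10 reads in KO. In cDC2 it had 1.15, 5.94 and 4.78 CPM in KO and 1.09, 8.50 and 11.9 CPM in WT, so that replicate 1 was the lowest library in both. Its coding windows are all unique. Rpl39 itself, whose transcript has 15.9% unique coding windows, had 73.9 ± 34.7 RPKM in WT cDC1 and 61.7 ± 4.26 RPKM in KO cDC1 (SD, n = 3 each), with a log2 fold change of -0.26 and an adjusted p of 0.755 in edgeR's test.

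The sign of the genotype difference depended on the replicate number. KO minus WT in cDC1 had a median of 0.75 over the members for the libraries numbered 1, with 86 of 87 higher in KO. For number 2 the median was -0.76 with 87 of 87 lower, and for number 3 it was -0.75 with 86 of 87 lower. The length class had medians of 0.26, -0.53 and -0.52. In cDC2 the members' medians were -1.04, 0.49 and 0.00 for numbers 1, 2 and 3. The numbers do not mark shared mice between the genotypes, so these are differences of single libraries.

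**Figure D4:**
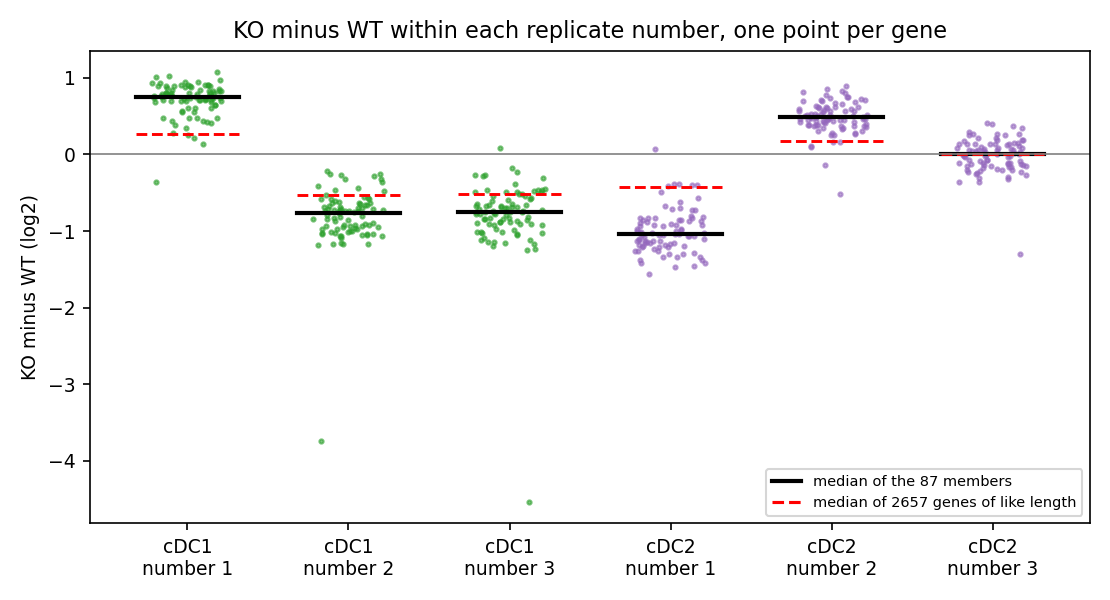
KO minus WT (log2) for each of the 87 members, 1 library against 1 library of the same replicate number, in cDC1 and cDC2; black lines are the members' medians and dashed red lines those of 2657 genes of like length. The cDC1 medians are 0.75, -0.76 and -0.75 and those of cDC2 -1.04, 0.49 and 0.00.

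Without WT cDC1 replicate 1, 9 of 87 members (10.3%) were called lower in KO cDC1, where 10.5% of all genes were called lower, and the members' median was -0.73. The fits on the libraries numbered 2 and 3 were chosen when earlier results of these data had shown that number 1 stands apart. With numbers 2 and 3 alone, 2 libraries per group, 83 of 87 were called lower (median -0.78). There 22.9% of all genes were called lower and the length class had a median of -0.56. In that fit Rps27l, a p53-inducible paralog of Rps27, was at -1.19 (SE 0.14). With the length trend of each library removed as well, an alternative chosen after seeing the data, 31 members were called lower and 4 higher, with a median of -0.22, and 19.3% of all genes were called lower and 19.1% higher. The 4 that were then higher were Rpl23, Rpl29, Rps4x and Rpl36a, of which Rpl23 and Rpl29 are named after their values were seen. With the length trend removed in all 12 libraries, the members' median was -0.02 and none was called, where 7.25% of all genes were called.

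In cDC2 the genotype comparison called no member and 0.0% of all genes, with a median over the members of -0.07, 67 of 87 on the lower side, and no member at an unadjusted p below 0.05. DESeq2 and limma-voom also called none. The median was -0.05 with the length trend removed in all 12 libraries. The sign of the median rested on single libraries: leaving out 1 gave -0.33 (without KO cDC2 replicate 2) to 0.25 (without KO cDC2 replicate 1), and with numbers 2 and 3 alone it was 0.24, with 85 of 87 higher. The difference of the genotype effects between the subsets (cDC1 minus cDC2), which uses the same 12 libraries as both genotype comparisons, called no member by edgeR, with 1 at an unadjusted p below 0.05 and a median of -0.34. That median was 0.01 with the length trend removed in all 12 libraries, where 45 of 87 were positive, and leaving out 1 library gave -0.66 (without WT cDC1 replicate 1) to -0.05 (without WT cDC1 replicate 3). By the same test 0.149% of all genes were called lower. DESeq2 and limma-voom called 0 members, where 3.58% and 1.24% of all genes were called. With numbers 2 and 3 alone, 86 members were called lower in this difference (18.1% of all genes), and 31 with the length trend removed as well (13.6%). In cDC2 those libraries gave 1 member called higher in KO, where 3.35% of all genes were called higher.

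Between the WT subsets 2 members were called, Rps19 and Rplp2, both lower in cDC1. Of all genes 10.9% were called lower and 10.4% higher in cDC1. The members' median was -0.62 with 80 of 87 on the lower side, and 19 members were at an unadjusted p below 0.05; the length class had a median of -0.12 and all genes of 0.02. The medians were -0.62 over the 46 large subunit and -0.65 over the 31 small subunit genes. This comparison shares its WT cDC1 libraries with the genotype comparison in cDC1. For 42 of the 87 members all 3 cDC1 libraries lay below all 3 cDC2 libraries, against 16.2% of all genes, and for no member did they all lie above. The mean was highest in WT cDC2 for 63 members, in KO cDC2 for 17 and in WT cDC1 for 7.

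Rps19, a small subunit protein needed for 18S rRNA maturation and mutated in Diamond-Blackfan anaemia, was counted at 304, 778 and 877 CPM in WT cDC1 and at 1710, 1486 and 1814 CPM in WT cDC2. Its groups did not overlap, and its log2 fold change was -1.35 (SE 0.44, adjusted p = 0.0435, edgeR quasi-likelihood test). In the KO libraries Rps19 had 586, 483 and 616 CPM in cDC1 and 715, 2426 and 1997 CPM in cDC2. Rplp2, a partner of Rplp1 in the ribosomal stalk, was counted at 325, 805 and 872 CPM in WT cDC1 and at 1713, 1280 and 1412 CPM in WT cDC2. Its groups did not overlap either, with a log2 fold change of -1.14 (SE 0.37, adjusted p = 0.0436, edgeR quasi-likelihood test). Rplp1 itself had 1540, 4254 and 4661 CPM in WT cDC1 and 4565, 3656 and 4406 CPM in WT cDC2, which overlap.

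The calls of Rps19 and Rplp2 were lost in edgeR's test when the pool of mice, which joins a cDC1 with a cDC2 library, was a block (log2 fold changes -1.48 and -1.24, adjusted p = 0.0721 and 0.0972), and no member was then called. With the replicate number as the block, 8 of 87 were called lower (9.2%) and 11.5% of all genes. Leaving out WT cDC1 replicate 1 also ended both calls (log2 fold changes -1.01 and -0.81) and brought the members' median to -0.27, and so did leaving out any 1 of 8 other libraries, so the calls stand near the threshold.

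The difference between the WT subsets was not the same for all members once the length trend or the libraries numbered 1 were set aside. With the length trend removed in all 12 libraries, 17 members were called lower and 3 higher in cDC1, where 13.9% of all genes were called lower and 13.0% higher, with a median of -0.46. With numbers 2 and 3 alone, 29 were called lower and 7 higher (median -0.30), where 24.3% of all genes were called lower and 23.2% higher. Rps19 was at -0.98 (SE 0.12), Rps27 at -0.94 and Rps27rt at -0.90 in that fit. The 7 higher were Rpl28 (0.88), Rps2 (0.66), Rps26 (0.63), Rps19bp1 (0.63), Rpl36al (0.55), Rps27l (0.47) and Rpl7l1 (0.39). Rpl28, Rps26 and Rpl36al were the 3 called higher in the fit with the length trend removed, at 0.79, 0.67 and 0.52. Of these, Rpl28 and Rpl36al have no unique coding window.

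**Figure D5:**
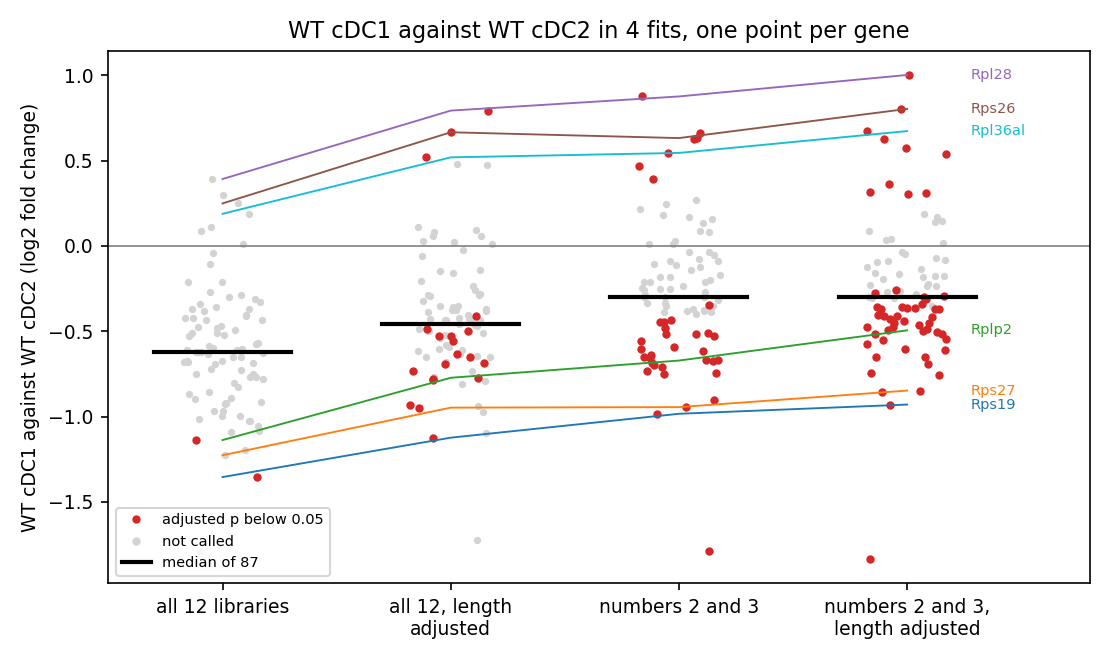
Log2 fold change of WT cDC1 against WT cDC2 for each of the 87 members in 4 fits, with called members in red and the median as a black line; lines follow 6 genes. The medians are -0.62, -0.46, -0.30 and -0.30, and Rpl28, Rps26 and Rpl36al lie above 0 in each fit while Rps19, Rps27 and Rplp2 lie below.

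The paralog pairs below were set side by side across the WT subsets by their means only. Rpl22 and Rpl22l1 both had lower means in WT cDC1, and in the other pairs only the first gene named did. Rpl36a, on the X chromosome, had 189.6 ± 80.6 RPKM in WT cDC1 and 267.2 ± 37.5 RPKM in WT cDC2, while its paralog Rpl36al had 582.7 ± 248.1 and 511.7 ± 64.5 RPKM (SD, n = 3 each). Neither of these 2 genes has a unique coding window, and nor has Rps27, so the reads given to each are uncertain. Rpl22, an RNA-binding large subunit protein, had 377.8 ± 182.2 and 571.3 ± 26.6 RPKM in the same groups, and Rpl22l1 181.2 ± 72.6 and 259.9 ± 7.21 RPKM. Rpl7 had 1355 ± 640 and 1818 ± 220 RPKM, and Rpl7l1, which is linked to ribosome assembly, 56.8 ± 17.8 and 52.6 ± 7.06 RPKM. Rps27 had 148.6 ± 69.9 and 348.0 ± 79.0 RPKM, and Rps27l 315.4 ± 123.3 and 296.2 ± 35.5 RPKM. None of these 8 was called between the WT subsets; the nearest was Rps27 (log2 fold change -1.23, SE 0.42, adjusted p = 0.0568, edgeR quasi-likelihood test). The difference between a paralog and its partner was not tested.

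The replicate number, as a factor beside the 4 groups, called none of the 87 members in edgeR's test, with 8 at an unadjusted p below 0.05, and 0.194% of all genes. DESeq2 and limma-voom also called none, where 3.79% and 0.358% of all genes were called. Number 1 minus the mean of 2 and 3 had a median of -0.58 over the members, with 86 of 87 negative, and -0.26 over the length class. With the length trend removed it was -0.30 over the members, with 72 negative, and 0.01 over the length class. Leaving out WT cDC1 replicate 1 brought it to -0.34, with 0 members at an unadjusted p below 0.05. The shares of reads show that number 1 was low in WT cDC1 and KO cDC2 and not in the 2 other groups. For number 1 minus the mean of 2 and 3, Rps24 was at -0.93 (SE 0.35) and Rps27rt at -0.84 (SE 0.32). Their adjusted p of 0.470 and 0.482 (edgeR quasi-likelihood test) are those of the factor of 3 levels and not of this contrast.

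Fau, which encodes a ubiquitin-like protein fused to a small subunit protein, and Rack1, the scaffold on the small subunit, fall outside the naming rule. Neither was called in any of the 5 tests. Fau had 338, 975 and 1161 CPM in WT cDC1 and 1622, 1595 and 2137 CPM in WT cDC2, which do not overlap (log2 fold change -1.11, SE 0.44, adjusted p = 0.0931, edgeR quasi-likelihood test). Of the 34 ribosomal protein pseudogenes tested, 1 was called lower between the WT subsets, where 10.9% of all genes were. The pseudogenes' median was -0.82 and that of the members -0.62. Reads on pseudogenes numbered 11.4 to 14.3 per 100 reads on the members in every library. The means were 11.8 ± 0.182 in WT cDC1, 11.5 ± 0.103 in KO cDC1, 13.3 ± 1.28 in WT cDC2 and 13.5 ± 1.005 in KO cDC2 (SD, n = 3 each). The pseudogenes thus moved with the members, with a higher ratio on average in cDC2.

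Of 25 genes of ribosome biogenesis, 7 were called higher in WT cDC1 than in WT cDC2 and 0 lower, with a median of 0.59; of all genes 10.4% were called higher and the median was 0.02. When only the WT libraries were fitted, 1 was called, where 12.2% of all genes were called. With numbers 2 and 3 alone 13 were called higher and 2 lower, where 23.2% of all genes were called higher and 24.3% lower. Dkc1, the pseudouridine synthase of small nucleolar RNPs, had 54.9 ± 2.93 CPM in cDC1 and 26.8 ± 3.40 CPM in cDC2 (SD, n = 3 each), and Nop58, a core protein of the nucleolar particles that guide rRNA methylation, 145.4 ± 9.73 and 79.4 ± 10.3 CPM. Of 20 genes of RNA polymerase I and its cofactors, 3 were called higher, Polr1a with a log2 fold change of 2.09 (SE 0.33) among them. Polr1a had 76.2 ± 42.2 CPM in cDC1 and 17.9 ± 3.51 CPM in cDC2 (SD, n = 3 each). Its log2 fold change was 1.54 without WT cDC1 replicate 1 and 1.39 with numbers 2 and 3 alone, and the call held in both. With numbers 2 and 3 alone 9 of the 20 were called higher and 2 lower, against the same 23.2% and 24.3% of all genes. Of 22 translation factors 1 was higher, Pabpc1, the poly(A)-binding protein, at 0.78 (SE 0.23), and its call was lost in 11 of 26 alternatives. Of 16 regulators of the mTOR, LARP1 and MYC pathways 1 was higher, Rps6kb1, which encodes the kinase of Rps6, at 0.74 (SE 0.22). That call was lost in 8 of 26 alternatives, among them the length trend removed (0.61, adjusted p = 0.081, edgeR). With numbers 2 and 3 alone 4 regulators were called higher and 6 lower, with a median of -0.33, where 23.2% and 24.3% of all genes were. Between the genotypes in cDC1, no gene of ribosome biogenesis, RNA polymerase I or the translation factors was called, where 3.6% of all genes were called higher and 1.72% lower. Of the 16 regulators Eif4ebp1, an inhibitor of cap-dependent translation controlled by mTOR, was lower in KO (37.5 ± 9.06 CPM in WT against 20.3 ± 2.56 CPM in KO, log2 fold change -0.89, SE 0.23, adjusted p = 0.0436, edgeR quasi-likelihood test). That call was lost in 10 of 25 alternatives, among them the length trend removed (-0.61, adjusted p = 0.0799, edgeR).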

How the data were processed

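The authors deposited raw read counts per gene, with no normalization, under Entrez Gene identifiers with a length in bases. Reads were counted with featureCounts on GRCm38 (mm10), per the submitters' processing notes; the aligner and the treatment of multi-mapping reads are not given in the sources used here. Per the labels' protocols, polyA RNA was prepared with a TruSeq kit. RefSeq gave symbols for 25275 genes. The members and gene lists were chosen with earlier results of these data known.

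One edgeR 4.0.16 model (R 4.3.3) was fitted to all 12 libraries: TMM scaling, filterByExpr, 4 group means, robust quasi-likelihood, Benjamini-Hochberg over all 13415 genes tested, threshold 0.05. Each SE was obtained by dividing the log2 fold change by the root of its F value. CPM are TMM-scaled, and precision follows from the depth and n = 3. The length alternative took as an offset each library's lowess curve (span 0.3) of deviation on log2 length, drawn without the members. DESeq2 1.42.0 and limma-voom (limma 3.58.1) were alternatives. The fit was tested on simulated counts with known changes. These had the same dispersion for every gene, no length trend and no outlying library, so they do not test the fit under those conditions.

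Mouse pools pair the cDC1 and cDC2 libraries of a genotype, per the labels; same-pool residual correlations were -0.21, -0.11 and -0.07 in WT and 0.26, 0.14 and 0.14 in KO. The genotypes share only numbers. Named genes were Zfp366, called members, the 5 highest and 5 lowest by RPKM, the 4 most and 4 least variable, paralog pairs, Fau, Rack1, and called genes of the other lists by smallest p; some genes the rule names are not reported here. Counts of every pair of libraries within a group differed beyond sampling noise.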

Additional observations from a re-analysis of the deposited data

How the results depend on the processing

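The counts of called members moved with the fit. For KO against WT in cDC1, the main fit called 0 members (5.32% of all genes). DESeq2 called 1 (9.82%), and the replicate block with the length trend removed 1 (7.86%). Numbers 2 and 3 alone gave 83 (47.8%), and these with the length trend removed 35 (38.4%). Leaving out 1 library gave 0 to 9, the highest without WT cDC1 replicate 1 (22.3%). In cDC2 numbers 2 and 3 alone gave 1 (7.72%) and, with the length trend removed, 2 (8.57%). Leaving out 1 library gave 0 to 0 there. The difference between the subsets gave 86 (38.3%) with numbers 2 and 3 alone and 31 (28.2%) with the length trend removed as well. For WT cDC1 against WT cDC2, from 2 members (21.2% of all genes), library totals without TMM gave 7 (20.5%), DESeq2 8 (26.9%), limma-voom 4 (20.1%), the length trend removed 20 (26.9%), numbers 2 and 3 alone 36 (47.5%), these with the length trend removed 54 (47.5%), only the groups compared 0 (12.2%), the replicate block 8 (22.4%), the mouse pool block 0 (16.7%), and the replicate block with the length trend removed 30 (28.4%); leaving out 1 library gave 0 to 9, the highest without KO cDC2 replicate 1.

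Of 2903 alternative values for single genes, 2758 kept direction and side of the threshold, 22 lost the call, 119 gained one and 4 reversed. Rps4x for KO against WT in cDC1 was -0.29, and in the difference between the subsets -0.52, with numbers 2 and 3 alone. With the length trend removed as well, Rpl36a in cDC1 was 0.27 and Rplp1 between the WT subsets 0.32. Rps19 and Rplp2 lost their calls in 11 of 26 alternatives each, with adjusted p up to 0.101 and 0.0993 by edgeR's test. The cause was not tested.

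The KO and WT libraries of a number do not come from the same mice, and by number their residuals correlated at 0.02, -0.07 and 0.11 for cDC1, and at -0.05, -0.05 and -0.06 for cDC2. With the replicate block 0 members were called in either genotype comparison, where 5.46% of all genes were called in cDC1 and 0.0% in cDC2. Over all genes, KO against WT in cDC1 gave 714 calls, 1318 with DESeq2, 6437 with numbers 2 and 3 alone and 3052 without WT cDC1 replicate 1. With 3 libraries per group, and 2 in the fits on numbers 2 and 3, few libraries limit every p-value here. Rpl39l, at 10 reads in KO cDC1, is limited by depth.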

Other observations

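Of 77 mitochondrial ribosomal protein genes tested, 2 were called higher in WT cDC1 than in WT cDC2, Mrpl42 (106.7 ± 44.7 against 48.9 ± 4.82 CPM) and Mrps27 (37.2 ± 8.51 against 15.2 ± 8.98 CPM; SD, n = 3 each), and 0 lower, where 10.4% of all genes were called higher, with a median log2 fold change of -0.00 where the cytosolic members had -0.62. With numbers 2 and 3 alone, 29 were called higher and 3 lower, and of all genes 23.2% and 24.3%. The calls of Mrpl42 and Mrps27 were lost in 5 and 6 of 26 alternatives. Between the genotypes in cDC1 both groups of genes had negative medians, -0.44 and -0.39, and so had the length class. Of all genes 1.72% were called lower there. Mrpl42 was called lower in that comparison, at 44.3 ± 2.95 CPM in KO (SD, n = 3). So was Uqcrb, a subunit of respiratory complex III from a list of 87 nuclear oxidative phosphorylation genes. Uqcrb had 98.6 ± 40.3 CPM in WT and 47.3 ± 3.96 CPM in KO (SD, n = 3 each). These calls were lost in 6 and 13 of 25 alternatives. The difference between the 2 kinds of ribosomal protein genes was not tested.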
